A study of Mus musculus with 12 samples.

Results

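The 43 genes described here encode the machinery with which a cell makes, folds, checks and exports secreted proteins, together with Xbp1, the transcription factor that switches much of it on. They were taken by name as a list of the pathway, which was drawn up with earlier results of these data known, and all 43 were among the 16094 named genes of the expression table. By role, 1 was a transcription factor, 10 were chaperones and co-chaperones, 2 were lectin chaperones, 6 were disulfide or redox proteins, 8 acted in ER-associated degradation, 8 belonged to the translocon, 4 to the signal peptidase and 4 to the oligosaccharyltransferase. Single-cell RNA and antigen-receptor libraries were made from spleen CD45+ cells (leukocytes, enriched on magnetic columns and captured in 10x droplets) of 4 male mice. The 2 WT mice were C57BL/6, and the 2 SLE.yaa mice were of the strain B6.Sle1yaa, a lupus model that joins the Sle1 interval to the Yaa translocation, which places an extra copy of Tlr7 and its neighbours on the Y chromosome. The deposited age was 14.43 for the WT and 14.86 for the SLE.yaa mice, with no unit given. A tag of the labels speaks of a chimera condition, and the labels used here say no more about it. The mice are called WT 1, WT 2, SLE.yaa 1 and SLE.yaa 2, and these numbers pair nothing. Where 4 values follow each other with no name, they are in this order.

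Secreted and membrane proteins enter the endoplasmic reticulum (ER) through the Sec61 channel, where the signal peptidase removes their leader and the oligosaccharyltransferase adds sugars. Chaperones such as Hspa5 (BiP) and Hsp90b1 (GRP94), and disulfide isomerases, fold them, and misfolded chains are pulled back out and degraded. When folding capacity falls short, the sensors Ire1, Perk and Atf6 start the unfolded protein response. Ire1 splices the Xbp1 transcript into an active form, and plasma cells need Xbp1 to build the ER in which they assemble antibody.

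The spliced form of Xbp1 and Atf6 act through short promoter elements, and the 250 bases before each gene start that the RefSeq promoter table lists were searched for 3 of them on both strands. The ER stress element (ERSE) is CCAAT, 9 bases of any kind and CCACG, its second form (ERSE-II) is ATTGG, 1 base of any kind and CCACG, and the unfolded protein response element (UPRE) core was taken as TGACGTGG. No match of one element overlapped a match of another in these genes. Of the 43 genes, 33 had an entry in this table (GRCm38.p6). An ERSE was found in 9 of these 33 (27.3%) and in 35 of the 27025 genes of the table (0.13%), an ERSE-II in 1 of 33 (3.03%, against 0.037% of all genes) and a UPRE core in 2 of 33 (6.06%, against 0.603%). The ERSE genes were Calr, Canx, Creld2, Derl3, Dnajc3, Hsp90b1 with 2 copies, Hspa5, Pdia6 and Syvn1. Herpud1 held the ERSE-II, and Txndc5 and Txndc11 held the UPRE core. The sequences below are those of the genes on which the results turn most, each written 5′ to 3′ on the gene's own strand, with the matched element in capitals. In Creld2, Calr and Derl3 the element lay on the opposite strand and so reads CGTGG, 9 bases and ATTGG.
Hspa5: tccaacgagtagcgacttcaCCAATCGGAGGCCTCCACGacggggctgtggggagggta
Hsp90b1: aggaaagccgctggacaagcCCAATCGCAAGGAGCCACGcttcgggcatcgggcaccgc
Creld2: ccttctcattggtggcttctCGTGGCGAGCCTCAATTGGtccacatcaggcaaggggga
Calr: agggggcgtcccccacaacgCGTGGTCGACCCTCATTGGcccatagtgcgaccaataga
Derl3: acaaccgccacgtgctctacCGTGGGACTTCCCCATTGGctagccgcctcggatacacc
Herpud1: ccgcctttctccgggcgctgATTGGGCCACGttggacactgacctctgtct
Txndc11: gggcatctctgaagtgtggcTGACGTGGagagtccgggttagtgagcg
Txndc5: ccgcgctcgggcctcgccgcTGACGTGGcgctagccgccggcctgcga
In GRCm38.p6 these windows lie at chr2:34772005-34772063 (plus strand) for Hspa5, chr10:86705618-86705676 (minus) for Hsp90b1, chr15:88819500-88819558 (plus) for Creld2, chr8:84847055-84847113 (minus) for Calr, chr10:75893222-75893280 (plus) for Derl3, chr8:94386357-94386407 (plus) for Herpud1, chr16:11134607-11134654 (minus) for Txndc11 and chr13:38528025-38528072 (minus) for Txndc5. The element of Herpud1 ended 42 bases and that of Hspa5 47 bases before the start. The table lists 3 starts for Txndc5 and 2 for Txndc11, and 1 for each other gene with a match. The Txndc5 match precedes the innermost of its starts (38527914), inside the span of the gene, whose outermost start is 38528824, and no match precedes the other two. The Txndc11 match precedes the outer of its listed starts (11134532), but it too lies inside the span of its gene, which runs to 11134645. A match describes the letters of the window and shows no binding.

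The table held 22285 cells, between 4961 and 6130 per mouse, with a median of 3467 to 4695 unique molecular identifiers (UMIs) per cell in each mouse. Of these cells 510 (2.29%) shared a barcode sequence with a cell of another library. The values had been adjusted for depth before deposit. Cell types are those of the deposited annotation. The plasma cells (PC) numbered 12, 11, 340 and 287, and in each mouse they held the joining chain gene Jchain, the surface marker Sdc1 and the plasma cell regulator Prdm1. The other tested types were B cells (B), a B subset labelled B-ISG, early B cells (B-early), CD4 and CD8 T cells, NK cells, macrophages (Mac), dendritic cells (DC) and neutrophils (PMN). The name macrophages follows the label Mac alone, and cells with macrophage markers also lay under the label DC, as described below. A level below is the mean adjusted value of a gene over the cells of a type in 1 mouse, scaled to a sum of 1000000 and between mice by TMM, and each type was scaled on its own. Changes are log2 differences of (level + 10), SLE.yaa minus WT, so that those of low genes are understated, and p-values are limma's, adjusted over all genes tested in that type. A gene was tested where its level was 10 or more in 2 mice. One that was under 10 in both WT mice was tested only through the SLE.yaa mice and had to differ, so counts are given without such genes, and their levels are a description. Shares and backgrounds over all genes tested keep such genes, unless said to be counted in the same way or without them. These shares refer to the adjusted threshold. Counts at an unadjusted p below 0.05 are given without a share of all genes, so no excess is read from them. With 2 mice a group, an exact permutation test over the mice could not go below p = 0.333. The limma p-values weigh each gene's spread between 2 animals per group together with a spread estimated over all genes. That pooled part counted for 8.55 degrees of freedom in B, 12.8 in CD4, 45.2 in B-ISG and 1.76 in plasma cells, against 2 from the mice. Small p-values thus rest in part on the pooled spread, and those of IgG against IgM plasma cells rest on it alone.

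The machinery was concentrated in plasma cells. The summed level of the 43 genes in plasma cells was 36450, 62380, 68640 and 72260. In B cells it was 4861, 4814, 5804 and 5967. It was lowest in neutrophils, at 2176, 2345, 2517 and 2384. Of the 10 types compared in each mouse, plasma cells held the highest level for 41 genes in WT 1, for all 43 in WT 2 and for 42 in each SLE.yaa mouse. The exceptions were Syvn1, the ubiquitin ligase of ER-associated degradation, and Tram1, a translocon partner, in WT 1, and in both SLE.yaa mice Canx, the membrane-bound lectin chaperone calnexin, which was highest in dendritic cells. The median ratio of the plasma cell level to the B cell level over the 43 genes was 6.72, 12, 9.75 and 10.3 in the 4 mice. In the SLE.yaa mice it was smallest for Canx, at 1.68 and 1.65. It was largest for Selenom, a redox-active selenoprotein, in SLE.yaa 1 (57.6) and for Derl3, a channel component of the degradation pathway, in SLE.yaa 2 (65.7). Because the types were annotated from these same cells, these levels are a description and carry no test.

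**Figure D1:**
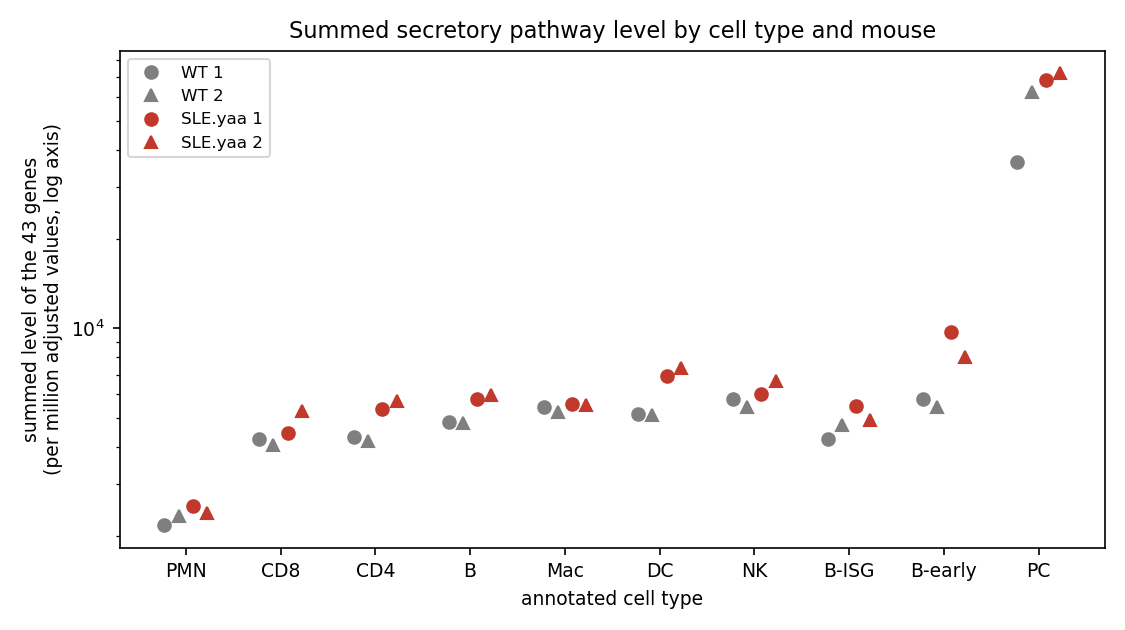
Summed level of the 43 genes (per 1000000 adjusted values, log axis) in each annotated cell type, 1 point per mouse. Plasma cells stand at 36450 to 72260, above every other type, and neutrophils lie lowest at 2176 to 2517.

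Xbp1 showed the same pattern with a background in other lineages. Its level in plasma cells was 2625, 1919, 4421 and 3474. In macrophages it was 255, 236, 260 and 237, with overlapping groups, and in CD8 T cells it was 34.1, 26.8, 56.6 and 49.5. Mzb1, a co-chaperone of Hsp90b1 known for its role in antibody secretion, stood at 3010, 7259, 6872 and 8284 in plasma cells. It stood at 421, 394, 443 and 473 in B cells, and in NK cells at only 4.51 to 23.6. Plasmacytoid dendritic cells (13, 8, 2 and 13 cells, scaled to their sum only) were too few for a test, and their summed level of the 43 genes was 11680, 9176, 10670 and 11440.

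Over all spleen cells together, 35 of the 43 genes passed as higher in SLE.yaa mice and none as lower, where 6% of the 8544 genes tested were higher and 1.85% were lower. Derl3 and Selenom, under 10 in both WT mice, were among the 35. Of the other 41 genes 33 were higher, against 4.57% of all genes counted in the same way (1.56% lower). The summed level was 4802.5 ± 33.2 (SD, n = 2) in WT and 9932 ± 789 (SD, n = 2) in SLE.yaa mice, a ratio of 2.07. The median change of these 41 genes was 0.77 on the log2 scale, and that of all genes counted in the same way was -0.02. Creld2, an ER chaperone of the unfolded protein response, was at 30.2 and 29.6 in the WT mice and at 246 and 187 in the SLE.yaa mice (log2 change 2.49 ± 0.14 SE, limma adjusted p = 0.000802). Xbp1 went from 88.3 and 75.4 to 476 and 322 (2.13 ± 0.19, limma adjusted p = 0.00308). Derl3 was at 4.58 and 5.21 against 96.1 and 48.7. SLE.yaa 1 was the higher of the SLE.yaa mice in each of the 3 genes.

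Selenom was at 3.27 and 2.82 in WT and at 39.6 and 33.8 in SLE.yaa mice. The other changes of largest size in all cells were in Edem1 (1.80) and Edem2 (1.64), which deliver misfolded glycoproteins for degradation, Hsp90b1 (1.80), Ssr4 (1.56), a subunit of the translocon-associated complex, Sdf2l1 (1.56), a co-chaperone of Hspa5, and Mzb1 (1.42). By role, all 10 chaperones and co-chaperones, all 4 signal peptidase subunits, 6 of 7 degradation genes other than Derl3, 4 of 5 redox genes other than Selenom, 4 of 8 translocon genes and 3 of 4 oligosaccharyltransferase subunits rose. The 8 genes that did not pass were Ssr1, Ssr2, Sec61g and Tram1 of the translocon, Rpn2 of the oligosaccharyltransferase, Canx, Syvn1 and the disulfide isomerase-like Txndc5. Txndc5 stood at 129 and 117 in WT and at 308 and 167 in SLE.yaa mice (limma adjusted p = 0.112). Among the other genes of the pathway, 3 of 11 sensor and stress genes rose, with Nupr1 (1.59) the largest, as did 7 of 23 further folding genes, with Prdx4 (1.91) the largest. Of the traffic genes between ER and Golgi 5 of 23 rose, with Lman1 (1.41), the cargo receptor ERGIC-53, the largest, and of the further targeting genes 1 of 18 rose. None of these lists had a member that fell. Of all genes tested in all cells, 6% were higher and 1.85% lower. Creb3l2, Fkbp11 and Sec24d, under 10 in both WT mice, are left out of these counts.

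Plasma cells moved with this difference. They made up 0.218% and 0.193% of the cells of WT 1 and WT 2, and 6.85% and 4.68% of those of SLE.yaa 1 and SLE.yaa 2. The share of all values of the 43 genes that lay in plasma cells was 2.17% and 3.05% in the WT mice and 51.1% and 43.4% in the SLE.yaa mice. In a sum over all cells, more cells of a type and more RNA per cell cannot be told apart. By gene, this share was highest for Derl3 (84.6% and 87.1% in the SLE.yaa mice), and Creld2 (80.5% and 78.3%) and Edem1 (75.7% and 67.5%) were also high. It was lowest for Canx (11.4% and 8.56%), one of the genes that did not pass. With plasma cells left out, Creld2, Sdf2l1 and Xbp1 were still higher in SLE.yaa mice, 3 of 41 genes with Selenom not counted. Of all genes tested, those under 10 in both WT mice included, 3.64% were then higher and 1.22% lower. Mzb1 was at a log2 change of -0.0066. Leaving out WT 2 lowered the 35 genes in all cells to 22, with 5.56% of all genes past the test in either direction.

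**Figure D2:**
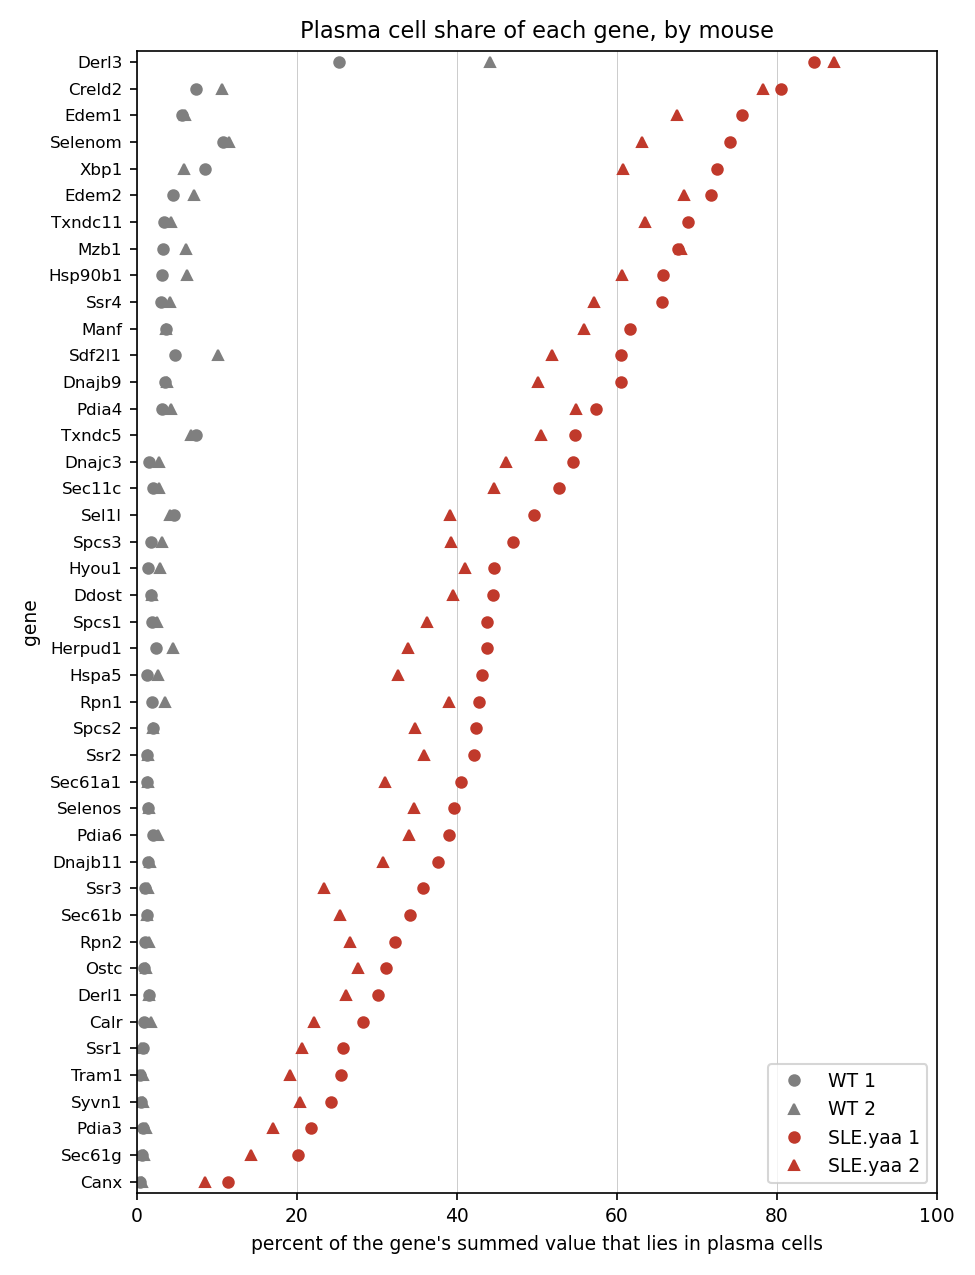
Percent of each gene's summed value that lay in plasma cells, 1 point per gene and mouse. In the SLE.yaa mice 17 and 15 of the 43 genes lie above 50%, and in the WT mice none does.

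Within B cells, 8 of 41 genes were higher in SLE.yaa mice and none was lower, with Derl3, under 10 in both WT mice, not counted. Of all genes tested 2.98% were higher and 1.12% lower, and 2.38% were higher when counted in the same way. Sdf2l1 was at 29.4 and 28.5 in WT and at 57.3 and 61.5 in SLE.yaa mice (0.83 ± 0.10, limma adjusted p = 0.00063). Creld2 went from 29.4 and 27.4 to 55.9 and 52.0 (0.73 ± 0.10, limma adjusted p = 0.00137), and the disulfide isomerase Pdia3 (ERp57) from 186.6 and 184.8 to 264.7 and 266.3 (0.49 ± 0.10, limma adjusted p = 0.0212). In each of these genes both SLE.yaa mice lay above both WT mice, which the test that picked them already uses. Xbp1 (0.62), Edem1 (0.46), Manf (0.47), a secreted ER stress factor, Hsp90b1 (0.52) and the lectin chaperone Calr (0.54) also rose. None of the translocon, signal peptidase or oligosaccharyltransferase genes passed, and the median change of the 41 genes was 0.19, against -0.01 for all genes counted in the same way.

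Jchain and the summed plasma cell markers were also higher in SLE.yaa B cells. Jchain was at 5.65 and 5.47 in WT and at 1712 and 811 in SLE.yaa B cells. The summed level of the 12 plasma cell markers, among them Igkc and the IgG constant genes, was 1495 and 1455 against 6179 and 7650. Whether these transcripts came from plasma cells or from the B cells themselves was not tested. Types that make no antibody showed such a rise too. In neutrophils Jchain was at 4.35 and 6.11 in WT against 843 and 117 in SLE.yaa mice, and Ighg2c at 0 and 0 against 111 and 88.8. In NK cells Jchain was at 4.51 and 0 against 72.5 and 35.3, and Ighg2c at 0 and 0 against 85.3 and 153. How far such transcripts carried member values into these types was not tested. With cells that held a Jchain value left out (3097, 3368, 1935 and 2194 cells stayed), 2 genes were higher, Pdia3 and Sdf2l1, and 2.9% of all genes tested were higher and 1.06% lower. Leaving out WT 1 gave 5 genes past the test (3.46% of all genes, either direction), leaving out WT 2 gave 2 (1.63%) and leaving out SLE.yaa 1 gave 15 (13% of all genes).

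In early B cells, 3 of 42 genes were higher and none lower, where 0.347% of all genes tested were higher and 0.0771% lower. The 42 here include Derl3, which was under 10 in both WT mice (8.18 and 2.33 against 89.8 and 21.3) and did not pass. Txndc11, a thioredoxin-domain ER protein, stood at 72.5 and 67.7 in WT and at 194 and 198 in SLE.yaa mice (1.36 ± 0.20, limma adjusted p = 0.00779). Herpud1, which scaffolds the degradation complex, stood at 134 and 116 against 272 and 267 (1.05 ± 0.19, limma adjusted p = 0.0206), and Creld2 at 30.4 and 24.5 against 125 and 73.7 (1.51 ± 0.27, limma adjusted p = 0.0169). Xbp1 was uneven between the SLE.yaa mice, at 574 in SLE.yaa 1 and 139 in SLE.yaa 2 against 94.7 and 92.2 in WT (limma adjusted p = 0.171). Jchain was uneven in the same way, at 11640 and 417 against 11.7 and 1.17. With Jchain-holding cells left out no gene passed limma's adjusted threshold, 7 had an unadjusted p below 0.05, and 0.243% of all genes tested were higher and 0.0512% lower. Without SLE.yaa 1 or without SLE.yaa 2 none passed either, with 16 and 26 genes at an unadjusted p below 0.05. In the B-ISG subset no gene of 41 passed limma's adjusted threshold, 6 had an unadjusted p below 0.05, and 0.604% of all genes tested were higher and 0.276% lower.

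In CD4 T cells, 12 of 41 genes were higher and 1 was lower in SLE.yaa mice, with Selenom, under 10 in both WT mice, not counted. Here 15.9% of all genes tested were higher and 12.3% lower, and 12.8% and 11.2% when counted in the same way, so that many genes differed. The 12 comprised Xbp1, the chaperones Hspa5, Hsp90b1, Sdf2l1 and Creld2, the lectin chaperone Calr, the isomerases Pdia3, Pdia4 and Pdia6, and Ssr4, Sec11c and Spcs1, a translocon-associated gene and 2 signal peptidase genes. Hspa5 was at 198 and 204 in WT and at 366 and 369 in SLE.yaa mice (0.84 ± 0.12, limma adjusted p = 5.34e-05). Hsp90b1 was at 209 and 231 against 390 and 443 (0.89 ± 0.12, limma adjusted p = 5.10e-05), and Xbp1 at 43.7 and 40.7 against 84.5 and 84.9 (0.86 ± 0.13, limma adjusted p = 0.000131). The groups did not overlap in any of the 3, but these genes were picked by the test on the same values, so this is no added support. Selenom was low throughout, at 1.05 and 1.58 against 13.2 and 14.1. The gene that fell was Dnajc3 (P58IPK), a co-chaperone that also restrains Perk, at 209 and 189 in WT against 150 and 143 in SLE.yaa mice (-0.42 ± 0.12, limma adjusted p = 0.0171). It is named as the single lower gene, chosen after its values were seen, and it did not pass without WT 1, without WT 2 or without SLE.yaa 2. No degradation or oligosaccharyltransferase gene passed.

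Among the other genes of the pathway in CD4 T cells, 1 of 8 sensor and stress genes rose, Atf6 (0.53). Creb3l2, an ER-bound transcription factor, was at 4.89 and 5.05 against 27.1 and 32.1 and is not counted. Of the further folding genes 4 of 23 rose, the largest in Selenok (0.73), and of the traffic genes 3 of 23 rose, with Sec24d not counted. Of the further targeting genes 1 of 18 rose and 2 fell, Stt3b (-0.89), a catalytic subunit of the oligosaccharyltransferase, and Sec63 (-0.54), a partner of the Sec61 channel. Of all genes tested in CD4 cells, those under 10 in both WT mice included, 15.9% were higher and 12.3% lower. The counts of these lists are therefore not read as a result about the lists.

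The make-up of the CD4 cells differed as well. Cells with a value of Lef1 or Ccr7, genes of naive and central memory T cells, numbered 698 and 749 in the WT and 320 and 206 in the SLE.yaa mice, and cells without one 99 and 85 against 315 and 344. Among the former, 9 of 41 genes were higher and none lower (background 11.2% higher and 8.28% lower): Calr, Creld2, Hsp90b1, Hspa5, Pdia3, Pdia4, Sdf2l1, Sec11c and Xbp1. Among the latter, 3 of 42 were higher and none lower (background 5.31% and 1.99%): Calr, Hsp90b1 and Hspa5. Both splits were chosen after the data were seen. The summed level of the immediate-early and dissociation list was 448 and 472 in WT against 1010 and 818 in SLE.yaa CD4 cells, and 4 of its 6 tested genes rose. Its part in the result was not tested. Jchain in CD4 cells was at 2.45 and 1.58 against 126 and 27.3, and without Jchain-holding cells 11 of 41 genes were higher and 1 lower, with Selenom not counted (background 15.1% higher and 12% lower).

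The changes in B and in CD4 cells were compared directly, as the difference of the B and CD4 levels within each mouse. Of the 41 genes tested, 4 changed more upward in B than in CD4 cells and 5 more upward in CD4 cells, where 14.7% of all genes passed in each direction, a larger share than among these 41. Hspa5 was in the second group, with a change of 0.17 in B and 0.84 in CD4 cells (difference -0.66, limma adjusted p = 4.32e-06). The others of that group were Hsp90b1, Pdia4, Sec11c and Spcs1. Dnajc3 was in the first group, with 0.25 in B and -0.42 in CD4 cells (difference 0.67, limma adjusted p = 0.000205), together with Edem1, Herpud1 and Ssr3.

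In CD8 T cells, 1 of 40 genes was higher and none lower. Of all genes tested, those under 10 in both WT mice included, 2.49% were higher and 0.652% lower. The higher gene was Txndc5, at 51.1 and 49.9 against 76.9 and 107 (0.74, limma adjusted p = 0.0498). Mzb1, under 10 in both WT mice and not counted, was at 6.05 and 7.96 against 32.9 and 21.1. Jchain was at 1.1 and 1.68 against 358 and 75 in these cells, and without Jchain-holding cells no gene passed limma's adjusted threshold, with 7 genes at an unadjusted p below 0.05, and 2.63% of all genes tested were higher and 0.773% lower. No gene passed without WT 1 or without WT 2 either, and 14 passed without SLE.yaa 1, where 21.9% of all genes did.

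In dendritic cells, 7 of 41 genes were higher and none lower, with Derl3 and Mzb1, under 10 in both WT mice, not counted. Of all genes tested 8.28% were higher and 3.71% lower, and 6.65% and 3.16% when counted in the same way. Hsp90b1 was at 214 and 306 in WT and at 674 and 817 in SLE.yaa mice (1.5 ± 0.21, limma adjusted p = 0.00243). Xbp1 was at 81.3 and 73.1 against 180 and 213 (1.24 ± 0.19, limma adjusted p = 0.00411), and Pdia3 at 250 and 195 against 437 and 474 (1.01 ± 0.18, limma adjusted p = 0.00784). The groups did not overlap in these 3 genes, which were picked by the test on the same values. Manf (0.94), Canx (0.77), Rpn2 (0.77) and Hspa5 (0.71) rose too, and Derl3, listed at 0 in both WT mice, was at 14.4 and 12. The cells under this name differed in markers. All 8 macrophage markers rose, with a summed level of 644 and 1365 in WT against 14120 and 11300 in SLE.yaa mice. Of the dendritic markers, Flt3, Zbtb46 and Cd209a were lower, and Xcr1, Clec9a, Siglech and Itgax are not described here. Cells without a value of C1qa, C1qb or C1qc, complement genes of macrophages, were 73 of 77 and 65 of 74 in the WT mice, but 51 of 260 and 71 of 290 in the SLE.yaa mice. Among these cells, compared after the data were seen, no gene of 41 passed limma's adjusted threshold, 2 had an unadjusted p below 0.05, and 0.236% of all genes tested were higher and 0.141% lower. In them the changes were 0.42 for Hsp90b1, 0.39 for Pdia3, 0.24 for Rpn2, 0.16 for Xbp1, -0.02 for Canx, -0.20 for Hspa5 and -0.34 for Manf. Over the cells of that name, leaving out WT 1 gave 19 genes (24.4% of all genes passed) and leaving out SLE.yaa 2 gave 4 (7.54%).

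No gene passed limma's adjusted threshold in NK cells, cells labelled Mac or neutrophils, where 4 of 41, 2 of 42 and 4 of 41 had an unadjusted p below 0.05. Of all genes tested in these types, 0.0846%, 3.92% and 1.24% were higher in SLE.yaa mice and 0%, 1.77% and 0.552% were lower. The summed level in macrophages was 5430 and 5217 in WT against 5570 and 5509 in SLE.yaa mice. In macrophages 26 of 42 changes were positive with TMM scaling and 6 with scaling to the sum only, so that no direction is given there.

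**Figure D3:**
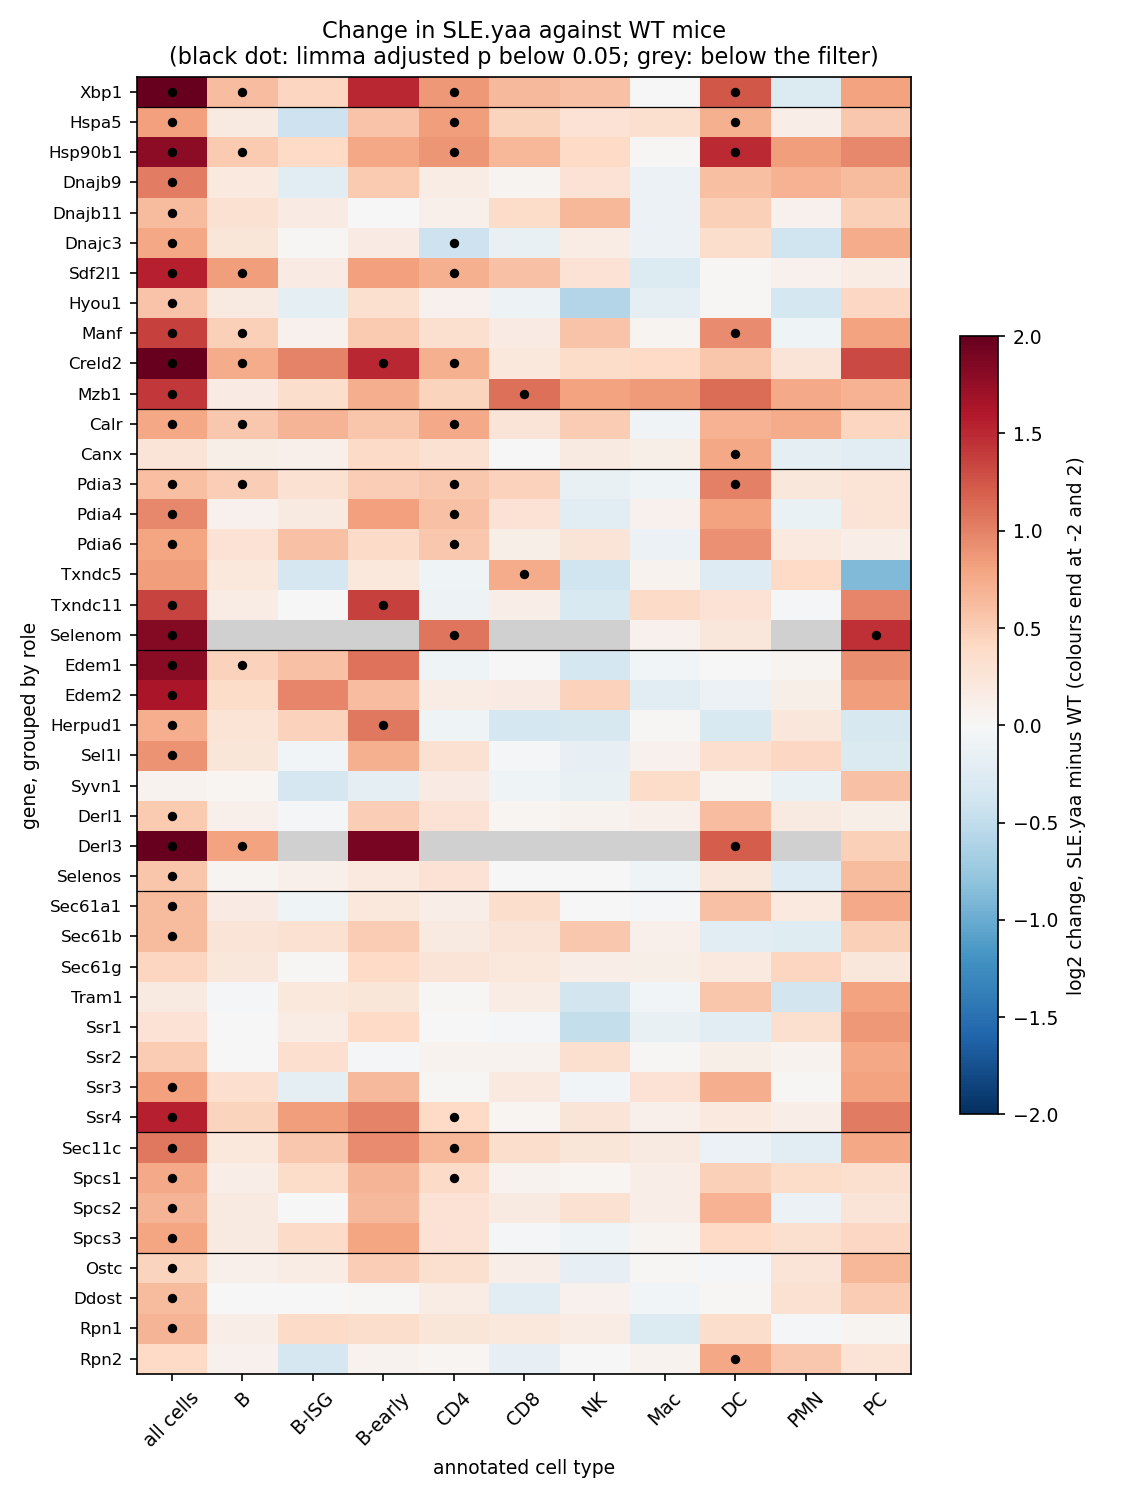
Log2 change (SLE.yaa minus WT) of each gene in all cells together and in each annotated type, with genes grouped by role. A black dot marks a limma adjusted p below 0.05 and grey a gene under the level filter. Dots include genes under 10 in both WT mice. All cells hold 35 dots, CD4 T cells 14, B cells 9, dendritic cells 8, early B cells 3, CD8 T cells 2 and plasma cells 1.

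Within plasma cells, 1 of 43 genes passed between SLE.yaa and WT mice, where 7.99% of all genes tested were higher and 0.341% lower. Without genes under 10 in both mice of a genotype, these shares were 0.487% and 0.108%. The gene was Selenom, at 123 and 139 in WT and at 376 and 380 in SLE.yaa mice (1.47 ± 0.14, limma adjusted p = 0.0172). Edem1 was at 1067 and 1305 against 2285 and 2222 and did not pass (limma adjusted p = 0.0671). Txndc5 was the member furthest in the other direction, at 3307 and 3382 against 2164 and 1499 (-0.89 ± 0.24, limma adjusted p = 0.178). Unadjusted, 14 genes had a p below 0.05. The median change of the 43 genes was 0.54, and that of all genes counted in the same way was 0.39. WT plasma cells rested on 12 and 11 cells. In WT 1 the summed chaperone level was 11340, against 26440 in WT 2 and 28020 and 32000 in the SLE.yaa mice, and the summed T cell markers were at 578, against 0, 28.5 and 12.8. Without WT 1, 11 genes were higher and 5 lower, and 58.9% of all genes passed. Without WT 2, 37 were higher and 1 lower, and 61.3% of all genes passed, and without SLE.yaa 2 none passed, with 9 at an unadjusted p below 0.05. Of the other pathway genes, 2 of 24 further folding genes rose, the peroxiredoxin Prdx4 from 438 and 257 to 1308 and 1409 (1.98, limma adjusted p = 0.0405) and Erp44 (0.88). None of 24 traffic genes passed, and Kdelr3, not counted, was listed at 0 in both WT mice and at 29.6 and 20.6 in the SLE.yaa mice.

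Plasma cells of the 2 genotypes also differed in the antibody class they made. Of the 650 plasma cells, 632 had a heavy chain in the receptor libraries. In the WT mice 10 cells of each mouse carried IgM and none IgG, whereas in SLE.yaa 1 and SLE.yaa 2 there were 96 and 49 IgM cells and 213 and 218 IgG cells. With IgM plasma cells only, an alternative added after the data were seen, no gene of 43 passed limma's adjusted threshold, 9 had an unadjusted p below 0.05, and 0% of all genes tested were called. Selenom was then at 125 and 84.0 in WT against 344 and 348 in SLE.yaa mice (1.66, limma adjusted p = 0.0662). Txndc5 in IgM cells was at 3342 and 2918 in WT against 5083 and 4531 in SLE.yaa mice and did not pass (0.62, limma adjusted p = 0.253).

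IgG and IgM plasma cells were then compared within the 2 SLE.yaa mice, with the mouse as a block. Of the 43 genes 5 were higher in IgG cells and 2 lower, where 3.31% of all genes tested were higher and 3.18% lower. Txndc5 differed most among the members. Its level was 4555 in SLE.yaa 1 and 3996 in SLE.yaa 2 in IgM cells, and 715 and 682 in IgG cells (-2.59 ± 0.15 log2, limma adjusted p = 2.42e-61). In this comparison limma gave the pooled spread infinite degrees of freedom, against 1 from the mice. Every SE and p-value of IgG against IgM thus rests on the pooled spread alone and does not measure a gene's own spread between the mice. Without the block the change of Txndc5 was the same with a limma adjusted p of 1.52e-05. TXNDC5 is a disulfide isomerase of the ER that is abundant in plasma cells. Herpud1 was the other lower gene, at 1336 and 1233 in IgM and 848 and 859 in IgG cells (-0.58 ± 0.14, limma adjusted p = 0.00218). The promoter windows of both genes are printed above.

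The 5 genes higher in IgG cells came from several steps of the pathway. Ssr2, of the translocon-associated complex, was at 410 and 311 in IgM and 622 and 584 in IgG cells (0.74 ± 0.14, limma adjusted p = 2.07e-05). Ddost, of the oligosaccharyltransferase, was at 689 and 577 against 1023 and 1021 (0.69 ± 0.14, limma adjusted p = 0.000101), and Hsp90b1 at 6578 and 6771 against 10170 and 12080 (0.73 ± 0.21, limma adjusted p = 0.0111). In all 3 both IgG values lay above both IgM values, which the test that picked them already uses. Manf (0.56 ± 0.15, limma adjusted p = 0.00744) and Mzb1 (0.61 ± 0.19, limma adjusted p = 0.0291) were also higher. Without the mouse as a block, Txndc5 was the only gene of the 43 that passed, and these 5 and Herpud1 had limma adjusted p-values between 0.0607 and 0.187. Median UMIs per cell were 9284 and 10547 in IgM and 10350 and 10672 in IgG cells.

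By single class, Txndc5 separated IgM and IgA from the IgG classes. Scaled to the sum only, its level in SLE.yaa 1 and SLE.yaa 2 was 4710 and 3823 in IgM cells and 4138 and 3130 in IgA cells (22 and 12 cells). In IgG2c cells it was 829 and 671, in IgG2b cells 705 and 740, and in IgG3 cells 714 and 428. The IgG1 cells, 16 in SLE.yaa 1, stood at 428. No IgG class of either mouse reached the lowest IgM or IgA level, a pattern given as a description. With IgG2c cells alone against IgM cells, Txndc5 was at -2.50, and 8 genes were higher and 2 lower, where 3% of all genes tested were higher and 3.08% lower.

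The difference was present from cell to cell. All 96 and 49 IgM plasma cells had a Txndc5 value, with a median adjusted value of 23.5 and 21 per cell, whereas 185 of 213 and 188 of 218 IgG cells had one, with medians of 3 and 2. In IgA cells the medians were 17 and 22, and in the 10 IgM cells of each WT mouse 14.5 and 9.5. The IgM cells came from 71 and 40 clones and the IgG cells from 169 and 136, and the largest IgG clone held 7 cells (3.29%) and 13 cells (5.96%). Averaged with equal weight per clone, Txndc5 was 25.6 and 22.5 in IgM and 4.38 and 3.83 in IgG cells. Clones with both IgM and IgG plasma cells were few, 3 in SLE.yaa 1 and 2 in SLE.yaa 2, and in each of these 5 the IgG cells had the lower mean. These clones held 5 IgM and 6 IgG cells in SLE.yaa 1, and 6 IgM and 2 IgG cells in SLE.yaa 2. Over these clones the mean was 19.7 in IgM and 2.42 in IgG cells of SLE.yaa 1, and 18.8 and 1 in SLE.yaa 2.

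Other genes of the pathway differed between the classes too. Of 13 sensor and stress genes 2 were lower in IgG cells, the asparagine synthetase Asns, a target of the Atf4 branch, at 109 and 163 in IgM and 35.8 and 66.1 in IgG cells (-1.28, limma adjusted p = 2.99e-09), and Ddit3 (CHOP), at -0.82 (limma adjusted p = 0.0332). Stt3b was at 191 and 201 against 72.4 and 77.1 (-1.28, limma adjusted p = 2.32e-11), whereas Srp19, of the signal recognition particle, was the 1 higher gene among 18 further targeting genes (0.54). Of 24 further folding genes 3 were higher in IgG cells, Erp29 (0.78), the prolyl isomerase Fkbp11 (0.75) and Ppib (0.52), and of 25 traffic genes 3 were higher, Copa (0.65), Sec23b (0.58) and Lman1 (0.51). Of all genes tested between the classes, 3.31% were higher and 3.18% lower in IgG cells.

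**Figure D4:**
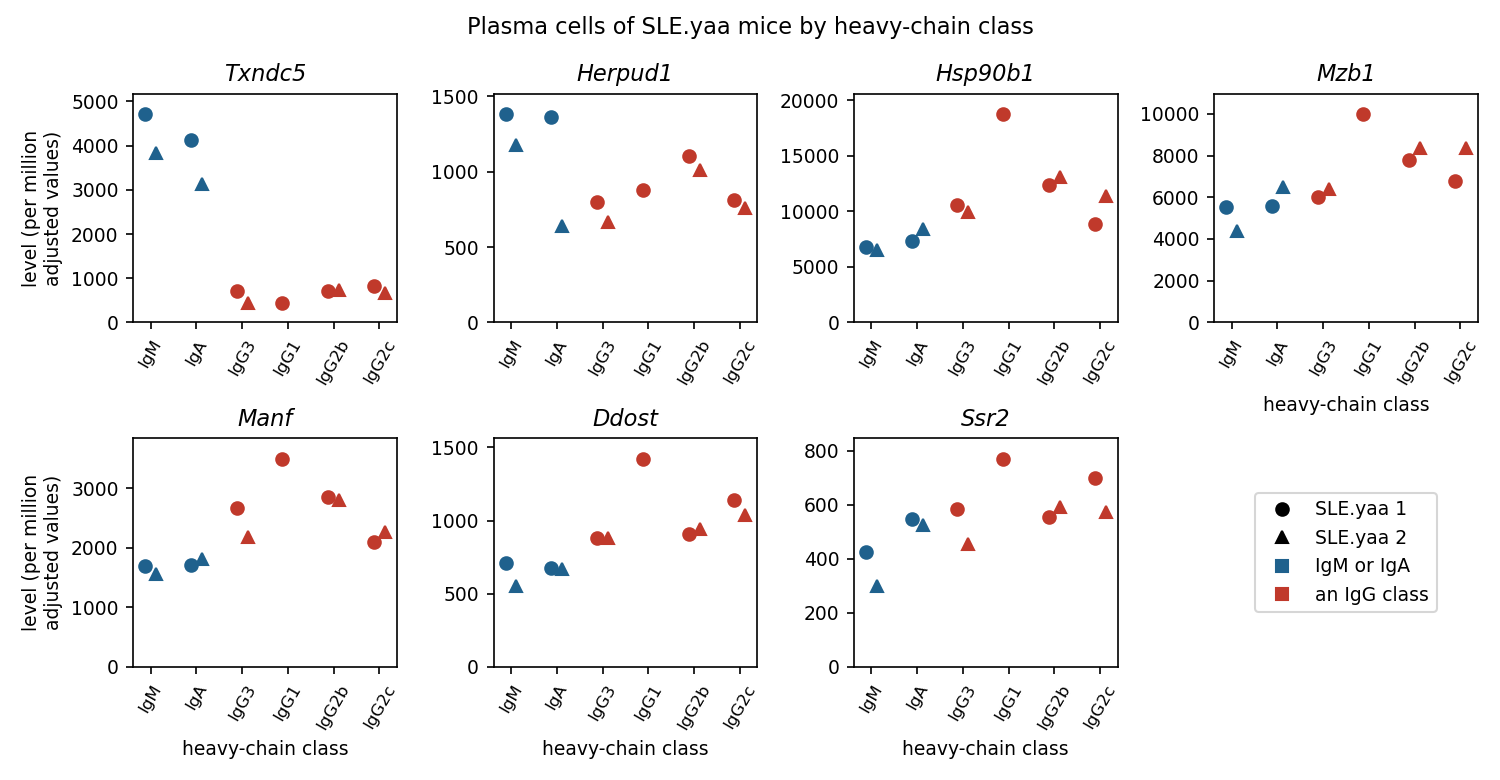
Level of the 7 genes that differed between IgG and IgM plasma cells (per 1000000 adjusted values, scaled to the sum, linear axes from 0), by heavy-chain class, 1 point per SLE.yaa mouse with at least 10 cells of the class. Txndc5 stands at 3130 to 4710 in IgM and IgA cells and at 428 to 829 in the IgG classes.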

How the data were processed

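The expression table holds the natural log of 1 plus a depth-adjusted value, as the deposited values show: their exponentials minus 1 are whole to within 1.64e-11 and sum to 2663 to 6382 per cell, although the deposited UMI count per cell runs from 1002 to 26847. The authors' way of adjusting depth is not stated in these sources. Cell Ranger 5.0.0, Seurat 4.0.0 and GRCm38 (mm10) are named in the submitters' processing notes. Since these are not raw counts, no count model was used. Values were converted back and averaged per mouse and type, scaled to a sum of 1000000 and by TMM (edgeR 4.0.16), and log2(value + 10) was tested with limma 3.58.1 (R 4.3.3, trend, two-sided, threshold 0.05 on Benjamini-Hochberg adjusted p) for genes at 10 or more in 2 mice. Types needed 20 cells per mouse, plasma cells 10. The 15 rows without a gene name (0.044% of values) were left out, and T cell receptor libraries were not used. Every member past the test is named, or with more than 10 the 10 of largest change, and of each other list up to 3. No doublet caller was run. Members and lists were chosen with earlier results of these data known. The procedure without a block was tested on data simulated from B cell levels. That simulation did not cover groups of few cells, such as WT plasma cells, or the fit with the mouse as a block.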

Additional observations from a re-analysis of the deposited data

Results flagged for a closer look

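In 9 genes the change between SLE.yaa and WT mice differed between B cells and CD4 T cells when the difference itself was tested with limma over all genes. The change in B minus the change in CD4 cells was 0.67 for Dnajc3, 0.55 for Edem1, 0.36 for Herpud1 and 0.31 for Ssr3. It was -0.66 for Hspa5, -0.49 for Pdia4, -0.44 for Sec11c, -0.37 for Hsp90b1 and -0.25 for Spcs1. Dnajc3 had opposite signs, 0.25 in B and -0.42 in CD4 cells, as did Edem1 (0.46 and -0.09) and Herpud1 (0.27 and -0.09), and the other 6 were positive in both types. The CD4 changes of Edem1 and Herpud1 were smaller than their SE (0.13 and 0.14). Dnajc3 and Herpud1 did not pass in B cells (limma adjusted p = 0.395 and 0.238). An opposite direction was thus not established for any of these genes. Adjusted p-values ran from 4.32e-06 (Hspa5) to 0.0442 (Spcs1). Of the 41 genes tested, 4 passed toward B and 5 toward CD4 cells, where 14.7% of all genes passed in each direction, so that the share among these genes was no larger than that of all genes.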

How the results depend on the processing

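Of the values of named genes past the test, 459 kept direction and side of the threshold under the alternatives, 109 lost the threshold and 4 changed sign. Those 4 were Mzb1 in all cells without plasma cells (-0.0066) and, in dendritic cells without a C1q value, Manf (-0.34), Canx (-0.0222) and Hspa5 (-0.20). Txndc5 in plasma cells, not past the test (-0.89), was at 0.62 with IgM cells only. Counts here hold all genes tested, also those under 10 in both WT mice. Of the counts under alternatives other than leaving out a mouse, 57 stayed within 1.5 times and 25 did not. Counts that stayed at 0, as in NK cells, are among the 57. Without scaling between mice, 27 genes passed in B, 4 in B-ISG, 8 in early B, 23 in CD4, 6 in CD8 and 2 in plasma cells, and 14 (12 higher, 2 lower) between IgG and IgM; the median change of all genes then moved to 0.16 in all cells, 0.21 in B and 0.26 in B-ISG. Scaled to the sum only, 6 passed in early B, 1 in CD8 and 4 in dendritic cells. With a pseudocount of 1, 1 passed in CD8. Without the filter on low values, 3 passed in B, 0 in early B, 0 in CD8 and 3 in dendritic cells. Without Jchain-holding cells, 2 passed in B, 0 in early B and 0 in CD8. In all cells without plasma cells 4 passed, in plasma cells 0 with weights by cell number and 0 with IgM cells only, in dendritic cells without a C1q value 0, and in CD4 cells 9 with and 3 without a Lef1 or Ccr7 value. Without the mouse as replicate block, 1 gene passed between IgG and IgM (Txndc5). No paired analysis was possible for SLE.yaa against WT because the labels give no shared numbers. Leaving out each mouse in turn gave 22 to 37 genes in all cells, 2 to 15 in B, 0 to 1 in B-ISG, 0 to 4 in early B, 10 to 18 in CD4, 0 to 14 in CD8, 4 to 19 in dendritic cells, 0 to 4 in macrophages, 0 to 0 in NK and neutrophils, 0 to 38 in plasma cells and 6 to 9 for B against CD4; the lone mouse of a group is then assumed to vary like the others. Between IgG and IgM, leaving out a mouse leaves no residual degree of freedom, and no test was made. Removing a cell class or a mouse shows how a count moves, and the cause was not tested. Depth-adjusted values hide each cell's true depth, and 11 or 12 WT plasma cells limit every plasma cell value.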
